A study of Mus musculus with 30 samples.

Results

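The myogenic transcription factors described here are 8 genes, chosen by name: the 4 myogenic regulatory factors Myod1, Myog, Myf5 and Myf6, the satellite cell factor Pax7, and the MEF2 factors Mef2a, Mef2c and Mef2d. All 8 had a row in each deposited table, out of 48709 genes. The tables hold RNA-seq read counts from adult C57BL/6 mice of 2 genotypes, wild type (WT) and heterozygous for loss of the chromatin architecture gene Ctcf (Ctcf+/-). Brain, kidney, liver, spleen and quadriceps femoris muscle were sampled from 3 mice of each genotype, which gives 10 groups of 3 libraries and 30 libraries in all. The labels do not say which part of the brain was taken, how old or of which sex the adults were, or how the Ctcf allele was lost. A bulk library sums all cells of its tissue, so more cells of a type and more RNA per cell cannot be told apart in any value below.

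The myogenic regulatory factors are basic helix-loop-helix proteins that bind E-boxes in DNA as dimers with E proteins. Myf5 and Myod1 commit cells to the muscle lineage, Myog drives their differentiation into fibres, and Myf6 (MRF4) is the member most associated with mature fibres. Pax7 marks satellite cells, the stem cells that lie along adult fibres, and is also used in parts of the brain. MEF2 proteins bind AT-rich sites, work with the myogenic factors on muscle genes, and act in neurons and lymphocytes as well.

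Library totals ran from 49819907 to 131645999 counts. Ctcf, the targeted gene, was lower in every Ctcf+/- library than in any WT library of the same tissue on the within-tissue scale, with group means at 61.4% to 67.2% of WT (in spleen the groups overlapped when scaled by total counts alone). Tissue markers were high in their own tissue: the 6 myofibre markers summed to between 155622.1 and 194465.8 CPM (read counts scaled to a common library total) in muscle, the hepatocyte markers Alb and Apoa1 to between 119568.2 and 166871.6 CPM in liver, and the B cell markers to between 2221.8 and 3029.8 CPM in spleen. Transcripts of other tissues were seen in several groups. Both kidney libraries numbered 3 held myofibre transcripts, with 1471 (WT) and 1576 (Ctcf+/-) counts of Ckm against at most 2 counts in the other 4 kidney libraries. WT liver replicate 3 held neuronal transcripts, with Snap25 at 11.3 CPM against 0.310 to 0.674 CPM in the other 5 liver libraries. Alb and Apoa1 summed to between 25.6 and 32.9 CPM in the 3 WT spleen libraries against 0.02 to 0.110 in Ctcf+/- spleen, to 235.7 CPM in Ctcf+/- kidney replicate 3 against 11.3 to 47.6 in the other kidney libraries, and to 12.8 CPM in WT muscle replicate 1 against at most 1.66 in the other muscle libraries. The kidney tubule markers Slc34a1 and Umod summed to between 2.78 and 5.76 CPM in Ctcf+/- spleen against 0.0841 to 0.379 in WT spleen, and to 16.1 CPM in WT muscle replicate 2 against at most 2.96 in the other muscle libraries.

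On the GRCm38 assembly, Myod1 lies on the forward strand at chr7:46376474-46379099 and Myog on the forward strand at chr1:134289989-134292548. Myf5 and Myf6 are neighbours on the reverse strand of chromosome 10, at chr10:107482908-107486134 and chr10:107492860-107494729, with a gap of 6725 bases between them. Pax7 is at chr4:139737062-139833528 (reverse), Mef2a at chr7:67231163-67372858 (reverse), Mef2c at chr13:83504034-83667080 (forward) and Mef2d at chr3:88142372-88172086 (forward). Counting was over exons without strand. Exons of Mef2a share 302 bases (2.06% of its exon bases) with Lysmd4, and exons of Mef2d share 531 bases (8.87%) with 1700113A16Rik, both on the opposite strand, so reads from those bases cannot be assigned to one gene. The other 6 share no exon base with another gene.

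RefSeq start regions (GRCm38.p6, 250 bases before to 50 after an annotated start) were matched for 6 of the 8 members, 8 regions in all. Those of 3 members are printed because they stand for the patterns below: Myog and Myf5 were read almost only in muscle, and Mef2a in all 5 tissues. Capitals mark E-boxes (CANNTG, which reads alike on both strands) and matches to the MEF2 motif on either strand.
Myog, chr1:134289754-134290053, forward strand: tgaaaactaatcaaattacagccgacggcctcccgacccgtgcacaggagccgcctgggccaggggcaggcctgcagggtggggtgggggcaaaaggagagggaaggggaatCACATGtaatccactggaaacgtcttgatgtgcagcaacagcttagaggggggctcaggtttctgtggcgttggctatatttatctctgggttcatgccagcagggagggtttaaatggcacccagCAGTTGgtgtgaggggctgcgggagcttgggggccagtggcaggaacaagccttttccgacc
Myf5, chr10:107486085-107486384, reverse strand: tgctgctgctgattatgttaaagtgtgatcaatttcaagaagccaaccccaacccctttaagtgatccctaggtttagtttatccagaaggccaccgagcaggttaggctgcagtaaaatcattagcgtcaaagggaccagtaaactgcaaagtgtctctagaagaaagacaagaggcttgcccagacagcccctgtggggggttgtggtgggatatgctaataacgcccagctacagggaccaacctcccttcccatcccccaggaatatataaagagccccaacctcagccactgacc
Mef2a, chr7:67372809-67373108, reverse strand: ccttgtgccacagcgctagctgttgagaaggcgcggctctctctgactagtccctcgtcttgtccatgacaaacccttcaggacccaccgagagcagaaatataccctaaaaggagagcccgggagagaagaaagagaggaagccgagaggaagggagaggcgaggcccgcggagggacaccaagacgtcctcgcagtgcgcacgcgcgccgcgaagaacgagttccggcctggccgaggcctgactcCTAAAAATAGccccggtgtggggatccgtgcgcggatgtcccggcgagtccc
The Myog region held 2 E-boxes and that of Myf5 held 0. That of Mef2a held a match to the MEF2 motif that overlaps its annotated start. Only the full MEF2 consensus was searched, so AT-rich stretches close to it, in the Myog region or elsewhere, were not counted. Of all 32851 start regions of the same length in the RefSeq table, 72.3% held an E-box and 3.19% a MEF2 motif match; a match is a description of the letters only.

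Levels across tissues were compared in the 15 WT libraries, as CPM scaled over all 30 libraries by the trimmed mean of M-values (TMM), here called across-tissue CPM. All 8 members were higher in muscle than in brain, kidney, liver and spleen (edgeR quasi-likelihood test, Benjamini-Hochberg adjusted p under 0.05, which is what "called" means throughout). The same direction was called for 32.5% of all 22933 genes tested against brain, 28.5% against kidney, 32.3% against liver and 37.2% against spleen. The myogenic regulatory factors were close to muscle-only, Pax7 had lower levels in brain and spleen, and the MEF2 factors were present in every library. How far the MEF2 factors in muscle exceeded those in brain depended on the scaling, as given with them below.

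**Figure D1:**
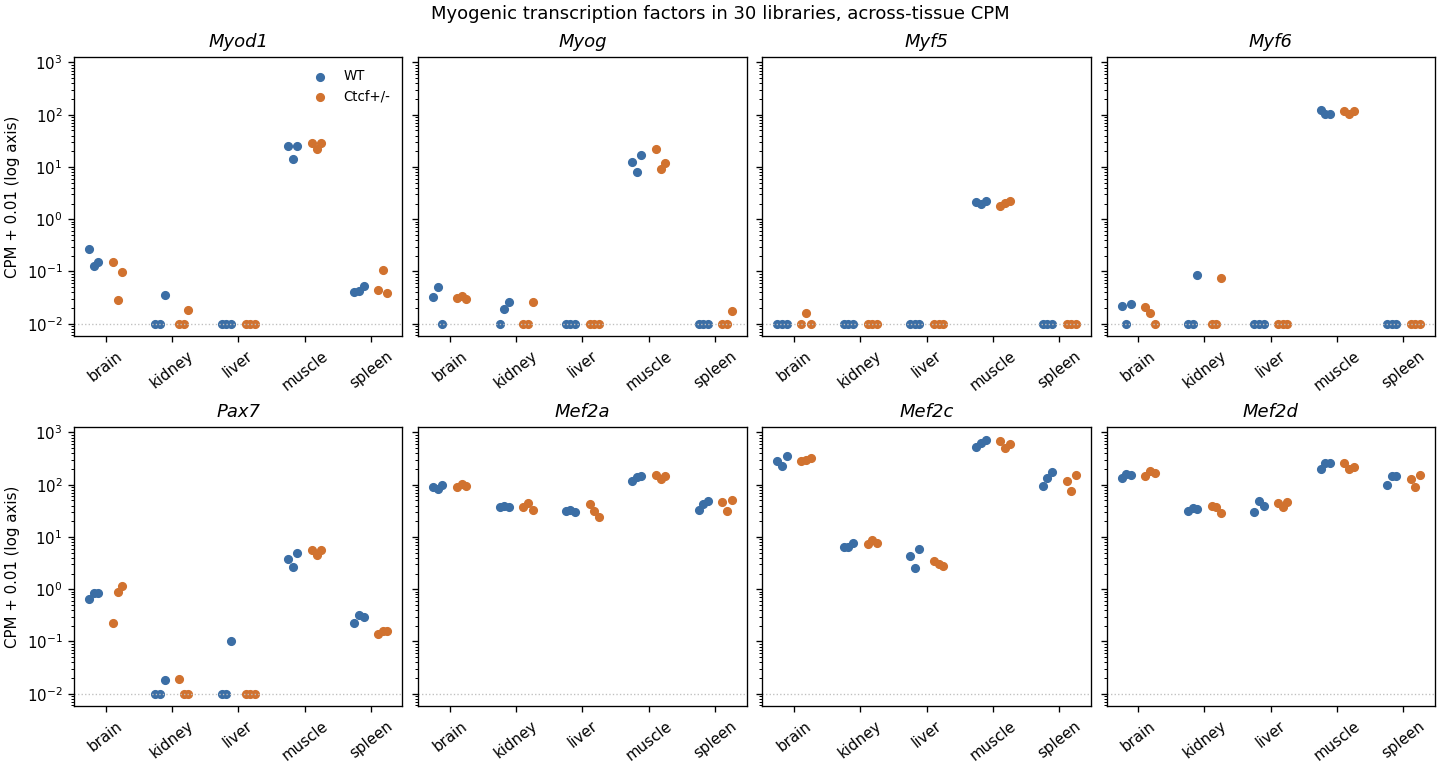
Across-tissue CPM plus 0.01 (log axis) of each member in each of the 30 libraries, by tissue and genotype; each point is 1 library and the dotted line is a count of 0. Outside muscle Myod1, Myog, Myf5 and Myf6 are at 0.265 CPM (Myod1 in WT brain) or less, whereas Mef2a and Mef2d lie above 20 CPM in every library.

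Myf6 was the most abundant myogenic regulatory factor in muscle, with 120.9, 104.0 and 101.9 CPM in the 3 WT libraries. It had 20481 counts in WT muscle, 9 in WT kidney, 2 in WT brain, and 0 in WT liver and WT spleen. All 9 kidney counts came from replicate 3, and the Ctcf+/- kidney library numbered 3 held 8, while the other 4 kidney libraries held 0. These are the 2 kidney libraries with myofibre transcripts, in which Acta1 (skeletal actin) was at 35.3 and 43.7 CPM and Myh4 (a fast myosin heavy chain) at 55.8 and 69.8 CPM. The muscle level was 4197.6-fold the kidney level with all 3 WT kidney libraries (95% counting interval 2210.8 to 9181.1) and at least 8205.5-fold without replicate 3, taking 3 counts over the group as the limit that a count of 0 allows. Against liver it was at least 4555.6-fold and against spleen at least 13299.5-fold higher.

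Myod1 was at 25.5, 14.5 and 25.4 CPM in WT muscle. Replicate 2 was the low library. Brain came next, with 23, 12 and 10 counts (0.265, 0.119 and 0.142 CPM), so that muscle was 124-fold higher (counting interval 92.7 to 171). Spleen held 3, 4 and 6 counts. The WT brain and spleen libraries did not overlap, and brain was higher by 2.28 ± 0.56 (SE) on the log2 scale (edgeR, adjusted p = 0.00241, against 79.8% of genes called in either direction between brain and spleen). In the Ctcf+/- libraries these 2 tissues overlapped, and the same step was 0.49 ± 0.65 and not called (edgeR, adjusted p = 0.501). In kidney the 3 counts of Myod1 were again all in replicate 3, and in liver no count was seen, which puts muscle at least 905-fold above liver.

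Myog was at 12.2, 7.99 and 16.6 CPM in WT muscle, a wider relative spread than that of Myf6 or Myf5. Outside muscle it had 6 counts in WT brain, 3 in WT kidney, and 0 in liver and spleen. The ratio of muscle to brain was 521 (counting interval 239 to 1420) and rose to 953.0 (263.5 to 7874.2) without brain replicate 2, which held 4 of the 6 counts. The ratio to kidney was 1396.9 (477.4 to 6779.0), and 2730.8 (489.6 to 107906.7) without kidney replicate 3.

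Myf5 was the lowest and the most even of the regulatory factors in muscle, with 2.10, 1.97 and 2.21 CPM. It had 392 counts in WT muscle and 0 in the other 12 WT libraries, which puts muscle at least 180-fold above brain, 241-fold above kidney, 87.2-fold above liver and 255-fold above spleen. Over both genotypes, 99.9% of all Myf5 and Myf6 counts, 99.6% of Myog counts and 98.8% of Myod1 counts were in the 6 muscle libraries.

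Pax7, the satellite cell factor, was at 3.71, 2.71 and 5.01 CPM in WT muscle. In WT brain it was at 0.633, 0.846 and 0.825 CPM and in WT spleen at 0.219, 0.310 and 0.282 CPM. The 3 tissues did not overlap. Muscle exceeded brain by 2.42 ± 0.43 (log2 ± SE, adjusted p = 1.54e-04) and brain exceeded spleen by 1.52 ± 0.45 (adjusted p = 0.00583, edgeR). Kidney held 1 count and liver 4. The 4 liver counts were all in replicate 3, the liver library with neuronal transcripts, and muscle over liver went from 118-fold (counting interval 45.8 to 433) to at least 102.8-fold without it, a bound set by a count of 0. Only 71.5% of Pax7 counts over both genotypes were in muscle.

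Mef2c had the highest CPM of the MEF2 factors in muscle, at 528.7, 637.7 and 727.7 in WT. Brain followed with 281.8, 228.1 and 347.1 CPM and spleen with 94.6, 136.5 and 174.6 CPM, while kidney (6.53, 6.53 and 7.64 CPM) and liver (4.37, 2.59 and 5.83 CPM) were far lower. Ranges of neighbouring tissues in this order did not overlap. The steps were 1.25 ± 0.28 from brain to muscle (adjusted p = 9.95e-04), 1.10 ± 0.28 from spleen to brain (adjusted p = 0.00222) and 4.36 ± 0.32 from kidney to spleen (adjusted p = 1.25e-08, edgeR log2 ± SE), where 75.5% of genes were called between kidney and spleen. The step from liver to kidney, 0.59 ± 0.29, did not pass (edgeR adjusted p = 0.101), where 54.1% of genes were called between these tissues. It did pass in the Ctcf+/- libraries (1.27 ± 0.22, edgeR adjusted p = 1.62e-04). In WT it passed when scaled by total counts (1.55 ± 0.34, edgeR adjusted p = 0.00103).

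Mef2d was at 197.0, 259.1 and 256.6 CPM in WT muscle, at 134.2, 160.9 and 153.7 in brain and at 97.7, 145.9 and 150.0 in spleen. Brain and spleen overlapped and were not told apart (0.22 ± 0.20, adjusted p = 0.319). Liver (30.6, 49.7 and 40 CPM) and kidney (31.9, 35.3 and 33.7 CPM) overlapped too (0.35 ± 0.20 higher in liver, adjusted p = 0.151). The large step was from liver to spleen, 1.68 ± 0.20 (edgeR, adjusted p = 2.93e-06; 72.9% of genes called between these tissues).

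Mef2a varied least across tissues, with 118.1, 141.5 and 149.3 CPM in WT muscle and 90.1, 81.4 and 97.8 in brain. Spleen (33.2, 42.7 and 49.1 CPM), kidney (38.2, 40 and 37.0 CPM) and liver (31.7, 33.4 and 30.3 CPM) were lower on this scale. Muscle exceeded brain by 0.71 ± 0.15 (adjusted p = 5.14e-04) and brain exceeded spleen by 1.13 ± 0.15 (adjusted p = 5.85e-06), whereas spleen over kidney (0.18 ± 0.15, adjusted p = 0.275) and kidney over liver (0.18 ± 0.15, adjusted p = 0.34) did not pass in edgeR's test. Liver over spleen, not neighbours in this order, was called (-0.36 ± 0.15, edgeR adjusted p = 0.0413, beside 72.9% of all genes). In the Ctcf+/- libraries it was -0.43 ± 0.20 and not called (edgeR adjusted p = 0.075).

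The scaling bears on these MEF2 steps. A few very abundant transcripts take a large part of muscle and liver libraries, and the mean TMM factor was 0.623 in muscle and 0.663 in liver against 1.36 in brain, 1.23 in kidney and 1.47 in spleen. Scaling by total counts moved the median gene of brain over muscle by 1.26 and that of muscle over spleen by -1.32 on the log2 scale. With it, muscle over brain became -0.56 ± 0.18 for Mef2a (adjusted p = 0.0102), -0.50 ± 0.22 for Mef2d (adjusted p = 0.0497) and -0.02 ± 0.32 for Mef2c (adjusted p = 0.976), and muscle over spleen became -0.37 ± 0.22 for Mef2d (adjusted p = 0.131, edgeR). With total counts Mef2a was also called between kidney and liver (1.17 ± 0.18, edgeR adjusted p = 4.60e-05). Its liver over spleen value went from -0.36 ± 0.15 to -1.54 ± 0.18 (edgeR adjusted p = 0.0413 with TMM and 2.12e-06 with total counts). The order of muscle, brain and spleen in MEF2 levels, and the steps from liver, are therefore relative to the other genes of each tissue. Myod1, Myog, Myf5, Myf6 and Pax7 were called higher in muscle under both scalings.

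Ratios between genes of one library do not depend on the scaling, but per-length ratios depend on the length taken. All annotated exons of a gene were joined, which gave 15.7 kb for Mef2c, 14.7 kb for Mef2a and 5.98 kb for Mef2d. Compared per kilobase of joined exons, the WT muscle levels were 87.3 ± 8.37 CPM per kb for Myf6 (SD, n = 3), 40.2 ± 6.34 for Mef2c, 39.7 ± 5.88 for Mef2d, 11.7 ± 3.38 for Myod1, 9.28 ± 1.10 for Mef2a, 8.20 ± 2.87 for Myog, 1.01 ± 0.0574 for Myf5 and 0.650 ± 0.197 for Pax7. Mef2c and Mef2d overlapped, as did Myod1, Mef2a and Myog. Myf6 thus made up 80.8% ± 4.77 of the summed per-length level of the 4 regulatory factors in WT muscle, with 80.9%, 85.5% and 76.0% in the 3 libraries, and Myf5 made up 0.934% ± 0.0789.

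The make-up of the MEF2 family differed between tissues in the same per-length terms. In WT muscle Mef2c and Mef2d took nearly equal shares, 45.0% ± 1.61 and 44.5% ± 1.61 (SD, n = 3), with Mef2a at 10.4% ± 0.3. Without division by length, the mean across-tissue CPM in WT muscle was 631.4 for Mef2c and 237.6 for Mef2d. In WT brain Mef2d took 50.9% ± 5.54 and Mef2c 36.7% ± 5.10, and in WT spleen Mef2d took 65.8% ± 2.22 and Mef2c 25.6% ± 2.20. Mef2c fell to 5.07% ± 0.517 in kidney and 3.09% ± 1.37 in liver, where Mef2a made up 30.2% ± 0.999 and 24.1% ± 3.93. The shares are parts of one sum, so one cannot rise without another falling.

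**Figure D2:**
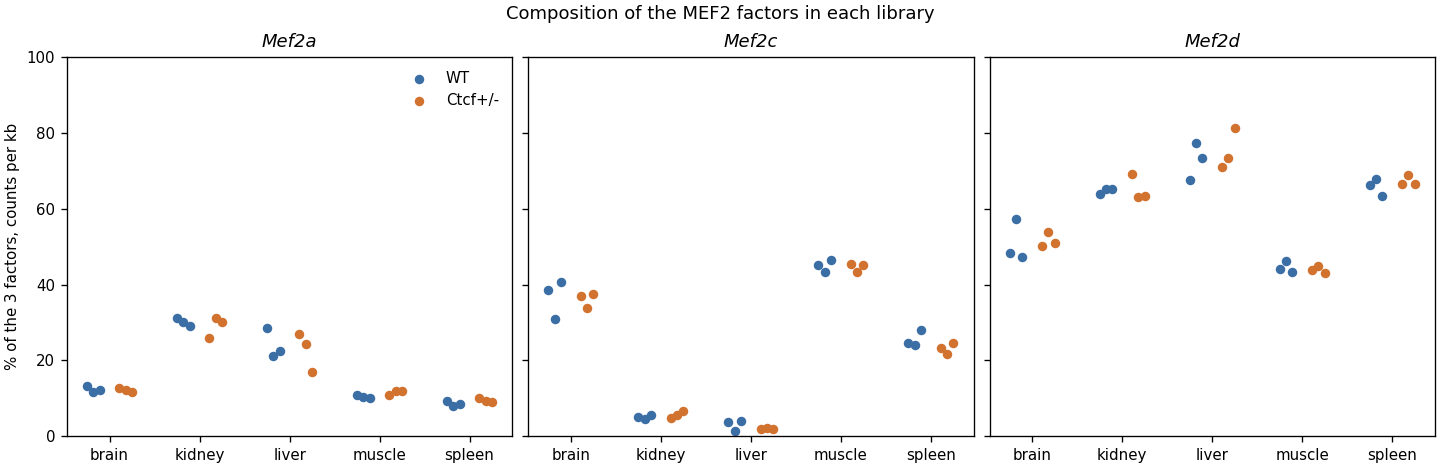
Share of each MEF2 factor (percent of the 3 factors' summed counts per kb) in each library, by tissue and genotype; each point is 1 library. Mef2c lies between 43.2% and 46.6% in all 6 muscle libraries and below 7% in kidney and liver.

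The genotype comparison asks whether losing 1 copy of Ctcf moved these factors in any tissue. It used each tissue's 6 libraries with CPM scaled over those 6 (within-tissue CPM), so its levels are not the across-tissue ones. No member was called in any tissue: 0 of 8 tested in muscle, 0 of 5 in brain, 0 of 4 in spleen, and 0 of 3 each in liver and kidney (edgeR quasi-likelihood test). Among all genes the calls were 0.0249% in muscle, 0.0157% in brain, 0.242% in spleen, 0.0193% in liver and 0.0211% in kidney, so a share near 0 is also the background. At an unadjusted p under 0.05 the count was 1 member in spleen (Pax7; 3.52% of all genes there) and 0 in muscle (6.45%), brain (2.96%), liver (4.56%) and kidney (6.44%), and DESeq2 called 0 members in every tissue, beside 1.01% of all genes in muscle, 0.162% in brain, 1.01% in spleen, 0.520% in liver and 0.867% in kidney. The members that were not tested had too few counts in that tissue for the filter on low counts.

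**Figure D3:**
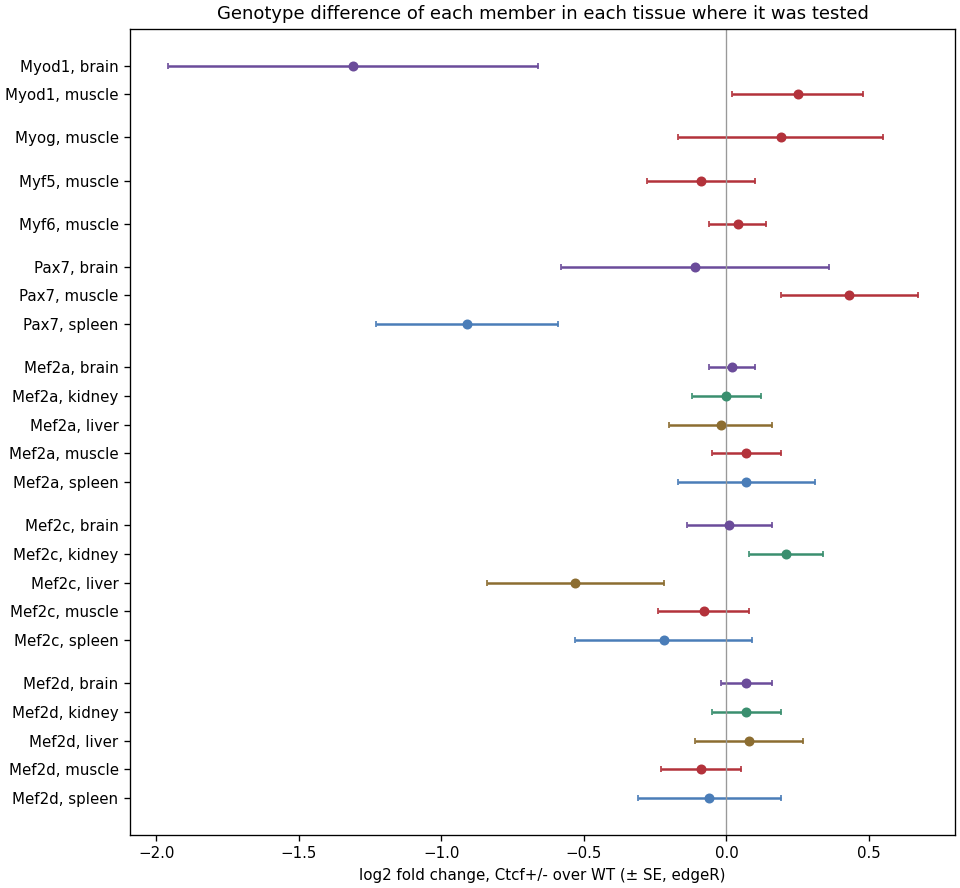
Log2 fold change of Ctcf+/- over WT with its SE from edgeR, for each member in each tissue where it was tested, coloured by tissue. The MEF2 values lie between -0.53 and 0.21, and the points farthest from 0 are Myod1 in brain (-1.31) and Pax7 in spleen (-0.91), neither of them called.

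In muscle, Myod1 was at 16.0, 8.99 and 16.1 within-tissue CPM in WT and at 17.6, 13.4 and 18.1 in Ctcf+/-. The groups overlapped (log2 fold change 0.25 ± 0.23 SE, edgeR adjusted p = 0.937), and the value was 0.02 without WT replicate 2. The library numbered 2 was the lowest of each genotype. Myog was at 7.69, 4.95 and 10.5 CPM in WT and at 13.3, 5.58 and 7.57 in Ctcf+/- (0.19 ± 0.36, adjusted p = 0.973). Its sign turned without Ctcf+/- replicate 1 (-0.22), the highest library, or without WT replicate 2 (-0.06), the lowest.

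Myf5 and Myf6 were steadier. Myf5 was at 1.32, 1.22 and 1.40 CPM in WT and at 1.10, 1.24 and 1.37 in Ctcf+/- (-0.09 ± 0.19, adjusted p = 0.98). Myf6 was at 76.1, 64.4 and 64.7 CPM in WT and at 73.0, 64.1 and 73.7 in Ctcf+/- (0.04 ± 0.10, adjusted p = 0.985 in edgeR's test), the smallest SE of the 8 members in muscle. The log2 ratio of Myod1 to Myog per length was 0.529 ± 0.223 (SD, n = 3) in WT and 0.658 ± 0.492 in Ctcf+/- (exact permutation test, 2-sided p = 0.8). The Myf6 share of the 4 factors was 80.8% ± 4.77 in WT and 78.9% ± 3.05 in Ctcf+/- (exact permutation p = 0.6, n = 3 each).

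Pax7 in muscle was at 2.33, 1.68 and 3.18 CPM in WT and at 3.39, 2.82 and 3.46 in Ctcf+/-. WT replicate 3 lay among the Ctcf+/- libraries, and the log2 fold change was 0.43 ± 0.24 (edgeR, adjusted p = 0.859), with 0.22 without WT replicate 2 and 0.69 without WT replicate 3. The 9 satellite cell markers, Pax7 included, summed to between 140.0 and 153.0 CPM in WT and to between 130.9 and 145.9 CPM in Ctcf+/-, and none was at 0. On their own within-tissue scales the same genes summed to 505.8 to 530.5 CPM in WT kidney and 378.8 to 585.6 in WT liver. The sum is therefore not particular to satellite cells. Among other cell types of the piece of muscle, the adipocyte markers Adipoq, Cidec and Plin1 summed to between 5.04 and 17.0 CPM in WT. In Ctcf+/- they summed to between 29.9 and 81.4 CPM, with no overlap and no marker at 0. The endothelial, fibro-adipogenic, macrophage and smooth muscle marker sums overlapped between genotypes. The part of other cell types in the values of Pax7 and the other members was not tested.

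The MEF2 factors overlapped between genotypes in muscle as well. Mef2a was at 74.4, 87.6 and 94.7 CPM in WT and at 95.6, 80.5 and 94.0 in Ctcf+/- (0.07 ± 0.12, adjusted p = 0.972). Mef2c was at 332.8, 394.8 and 462.0 CPM in WT and at 426.0, 313.5 and 383.3 in Ctcf+/- (-0.08 ± 0.16, adjusted p = 0.974). Mef2d was at 124.0, 160.5 and 162.9 CPM in WT and at 157.1, 124.5 and 138.9 in Ctcf+/- (-0.09 ± 0.14, adjusted p = 0.97, edgeR). The Mef2a share of the 3 factors was 10.2% to 10.8% in WT and 10.9% to 11.9% in Ctcf+/-, without overlap. Its exact permutation p of 0.1 is the smallest that 3 against 3 libraries allow, and adjusted over the 5 ratios tested it was 0.5. The shares of Mef2c (p = 0.7) and Mef2d (p = 0.6, exact permutation) overlapped.

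**Figure D4:**
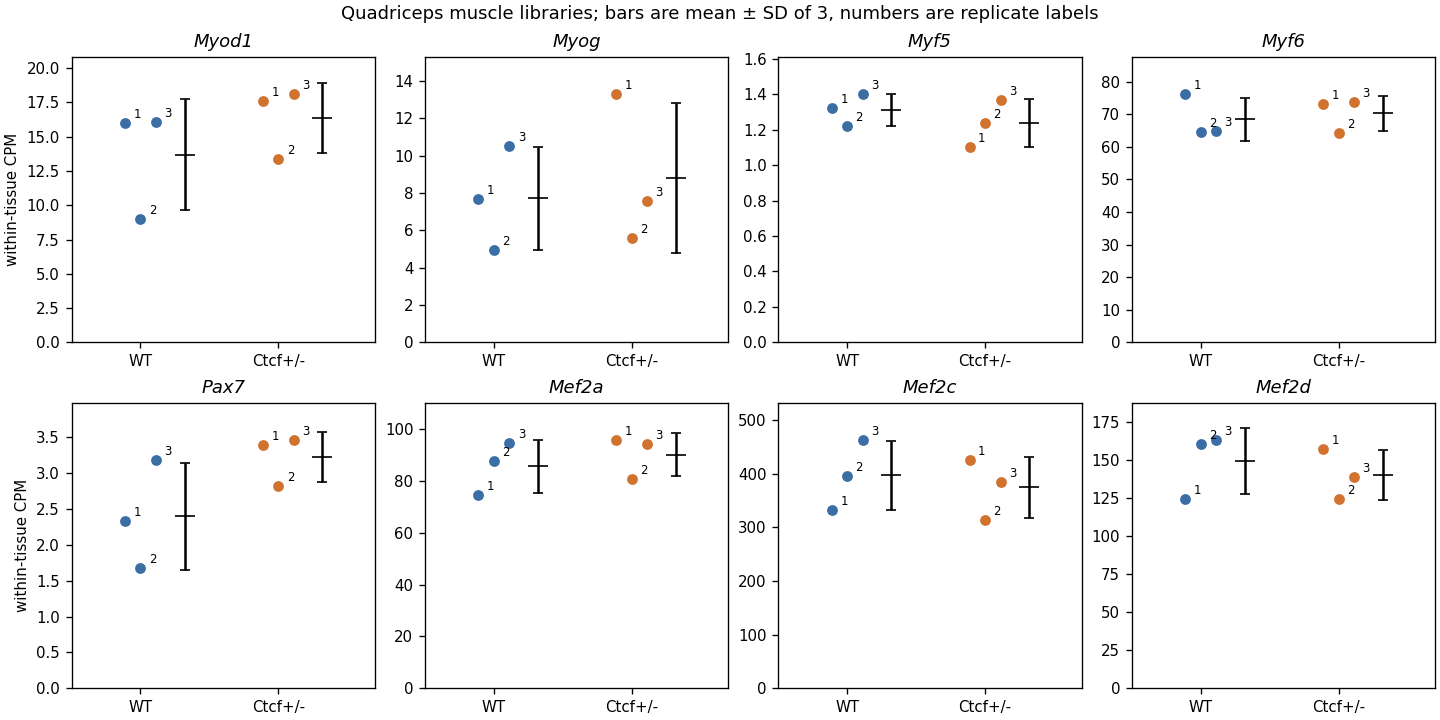
Within-tissue CPM of each member in the 6 muscle libraries (points, numbered by replicate label), with the mean and SD of each group of 3 beside them; each axis starts at 0. The WT and Ctcf+/- points overlap in every panel, and the libraries numbered 2 are lowest in both groups for Myod1, Myog and Pax7.

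None of the 8 members separated WT from Ctcf+/- in muscle, where 12.2% of all genes tested did. The same count was 0 in brain (background 7.83%), kidney (11.4%) and liver (8.99%), and 1 of 4 in spleen (6.64%). That member was Pax7, with 22, 38 and 40 counts in WT spleen and 19, 16 and 21 in Ctcf+/-, or 0.321, 0.457 and 0.402 against 0.190, 0.220 and 0.219 CPM. It was the member with the smallest p of any tissue (log2 fold change -0.91 ± 0.32, edgeR adjusted p = 1). The liver and kidney tubule markers separated the same spleen groups, in opposite directions (25.6 to 32.9 CPM in WT against 0.02 to 0.110, and 0.0841 to 0.379 against 2.78 to 5.76). They split the libraries as the genotype does, so their part in the Pax7 value and the genotype cannot be told apart.

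In brain, Pax7 had 55, 85 and 58 counts in WT and 20, 146 and 118 in Ctcf+/-. Ctcf+/- replicate 1 was the lowest of the 6 on the within-tissue scale (0.292 CPM against 0.874 to 1.53), and the log2 fold change went from -0.11 ± 0.47 to 0.30 without it. Myod1 in brain had 23, 12 and 10 counts in WT and 13, 3 and 9 in Ctcf+/- (-1.31 ± 0.65, adjusted p = 1, edgeR), and the groups overlapped. Its value lay between -1.97 (without Ctcf+/- replicate 1) and -0.67 (without Ctcf+/- replicate 2) when 1 library was left out. Taken by number, Ctcf+/- was the lower in 3 of 3 brain pairs. With the replicate block the value was -1.29 ± 0.42 (edgeR, adjusted p = 0.503), also not called. The labels do not state this pairing. Same-numbered brain libraries deviated together (r = 0.207, 0.383 and 0.537), but r reached 0.216 between different numbers. Only 2 of 3 correlated best with their own number. Mef2a, Mef2c and Mef2d in brain differed by 0.02 ± 0.08, 0.01 ± 0.15 and 0.07 ± 0.09, the tightest set of values of any tissue for Mef2a and Mef2d.

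In kidney, Mef2c was at 7.99, 7.99 and 9.37 CPM in WT and at 8.79, 10.9 and 9.63 in Ctcf+/- (0.21 ± 0.13, adjusted p = 0.926, edgeR), and Mef2a and Mef2d differed by 0.00 ± 0.12 and 0.07 ± 0.12. Without both libraries that held myofibre transcripts these became 0.30, 0.06 and 0.20, still not called, a setting chosen after the data were seen. In liver, Mef2c was at 2.86, 1.69 and 4.13 CPM in WT and at 2.18, 1.94 and 1.87 in Ctcf+/- (-0.53 ± 0.31, adjusted p = 1), the highest being the WT library with neuronal transcripts, and without it the value was -0.19. In spleen, Mef2a, Mef2c and Mef2d differed by 0.07 ± 0.24, -0.22 ± 0.31 and -0.06 ± 0.25, with the library numbered 1 lowest in WT and that numbered 2 lowest in Ctcf+/- for all 3 genes.

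No member's genotype difference was called as unequal between tissues (interaction test, 0 of 8, against 0.758% of 24262 genes), and no member had a called genotype effect shared by the 5 tissues (0 of 8, against 0.194%). At an unadjusted p under 0.05 both counts were also 0 (6.66% and 5.91% of all genes), and DESeq2 called 0 in each (3.95% and 0.648%). The smallest interaction p was that of Pax7 (0.111, adjusted 0.97), whose log2 fold changes were 0.43 in muscle, -0.11 in brain and -0.91 in spleen. The shared log2 fold changes ran from -0.17 ± 0.27 for Pax7 to 0.16 ± 0.31 for Myog (edgeR).

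The rest of the pathway was read through 6 lists with 69 genes. Of all 22933 genes tested, 32.5%, 28.5%, 32.3% and 37.2% were called higher in WT muscle than in brain, kidney, liver and spleen. Upstream factors such as Lbx1, a homeobox gene of muscle progenitors, were mostly higher in WT muscle than elsewhere: 9 of 11 against brain, 8 against kidney, 9 against liver and 9 against spleen. Within that list Lbx1 was at 51.3 CPM per kb and Pitx3, another homeobox gene, at 8.96. Of the 17 target genes, 16 were tested across tissues, and 15 were higher in muscle than in brain, 14 than in kidney, 15 than in liver and 16 than in spleen. Ckm, Pgam2 and Des, which encode a creatine kinase, a glycolytic mutase and desmin, led with 8512.2, 5436.3 and 1386.7 CPM per kb.

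Partners and regulators were counted in the same way, beside the same shares of all genes. Several counts lie near those shares, such as 4 of 12 genes around MEF2 against brain. Calls in either direction between muscle and brain, kidney, liver and spleen numbered 16590, 14767, 14731 and 17255 of 22933 genes. Of the 3 E proteins, only Tcf3 exceeded 2 CPM per kb in WT muscle (5.86, against 1.93 for Tcf4 and 1.61 for Tcf12), and 1 of 3 was higher in muscle than in brain, kidney or liver and 0 than in spleen, with 1, 0, 0 and 2 lower. Of the 16 inhibitors of the myogenic factors, 9, 7, 6 and 13 were higher in muscle than in brain, kidney, liver and spleen and 3, 5, 5 and 2 were lower, with Bhlhe40 (25.5 CPM per kb), Id1 (24.3) and Id3 (17.0) at the highest levels. Of the 12 genes around MEF2, 4, 6, 8 and 6 were higher in muscle and 5, 4, 1 and 5 lower, and the calcineurin subunits Ppp3cb (71.4 CPM per kb) and Ppp3ca (58.8) and the kinase Mapk14 (42.0) led. Of the 10 coactivators and co-working factors, 7, 8, 7 and 8 were higher and 1, 1, 1 and 2 lower, led by the methyltransferase Smyd1 (188.5 CPM per kb), Vgll2 (101.4) and the chromatin remodelling subunit Smarcd3 (37.8).

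None of the 69 genes was called between genotypes by edgeR in any tissue, with 67 tested in muscle, 61 in brain, 56 in kidney, 48 in liver and 45 in spleen. The unadjusted edgeR p was under 0.05 for 5 of 67 in muscle (6.45% of all genes tested) and 7 of 61 in brain (2.96%). It was so for 3 of 56 in kidney (6.44%), 4 of 48 in liver (4.56%) and 2 of 45 in spleen (3.52%). Brain stood highest above its background, and its 7 genes went in both directions. DESeq2 called 1 gene, in liver, where it called 0.520% of all genes. That gene was Bhlhe40, a repressor, with mean levels of 153.2 CPM in WT and 73.5 CPM in Ctcf+/- liver (-1.06 ± 0.20, edgeR adjusted p = 0.388, DESeq2 adjusted p = 5.79e-04). The other 3 liver genes were Id1, Id2 and Id3, dominant-negative partners of E proteins, at -1.08 ± 0.30, -0.50 ± 0.18 and -0.79 ± 0.33. None of these 3 was called by edgeR or by DESeq2 (DESeq2 adjusted p = 0.0607, 0.513 and 0.558), and the Id3 groups overlapped. Id4 was at 0.09 ± 0.45 in liver. The median over the 15 inhibitors tested in liver was -0.20, beside -0.01 over all genes tested there.

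In muscle the median log2 fold change was 0.06 over the 8 members and -0.18 over the 16 target genes tested, beside -0.01 over all genes. By size among pathway genes whose groups did not overlap, Ppargc1a, a coactivator of oxidative metabolism, had a log2 fold change of -1.29 ± 0.57 (adjusted p = 0.777), but WT replicate 2 alone was high (87.4 CPM against 18.6 and 18.2), with 17.1, 17.7 and 16.0 CPM in Ctcf+/-. Chrnd, an acetylcholine receptor subunit, was at 3, 2.44 and 2.37 CPM in WT and 2, 2.27 and 1.43 in Ctcf+/- (-0.45 ± 0.22, adjusted p = 0.811). Rapsn, which clusters those receptors, was at 36.5, 33.1 and 34.8 CPM in WT and 28.5, 31.2 and 30.0 in Ctcf+/- (-0.22 ± 0.09, adjusted p = 0.719). The receptor subunit Chrnb1 went the other way without overlap, with means of 28.3 CPM in WT and 31.6 in Ctcf+/- (0.16 ± 0.09, edgeR adjusted p = 0.871). Chrna1 (0.01 ± 0.18), Chrne (-0.16 ± 0.19) and Chrng (0.84 ± 0.83) overlapped. Groups did not overlap for 6 of the 16 target genes tested in muscle, beside 12.2% of all genes tested. Of these 6, Chrnb1 alone was higher in Ctcf+/-. Slc2a4 (-0.21 ± 0.09, edgeR adjusted p = 0.76) and Des (-0.17 ± 0.11, edgeR adjusted p = 0.89) were lower, like Ppargc1a, Chrnd and Rapsn. Twist1, a repressor of the myogenic factors, was at 2.99, 1.98 and 1.44 CPM in WT and 3.40, 3.50 and 3.58 in Ctcf+/- (0.71 ± 0.26, adjusted p = 0.65, edgeR).

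The genes whose levels followed each member most closely over the 30 libraries were found among 15822 named genes, by Pearson's r of log2 CPM; the libraries share tissues, so these values mostly describe the tissue pattern. For Myf6 they were Asb12 (r = 0.9987), Lrrc30 (0.9986) and Nctc1 (0.9980), and for Myog Lrrc30 (0.9940), Fgf6 (0.9937) and Mettl21e (0.9935). For Myf5 they were the microRNA locus Mir1b (0.9988), Chrnd (0.9967) and Fgf6 (0.9965), and for Myod1 Lsmem1 (0.9884), Pdlim7 (0.9868) and Ube2d1 (0.9828). Pax7 was followed by Lnpk (0.9685), Ppp3cb (0.9664) and Eya1 (0.9647). Mef2c was followed by Eya1 (0.9871), Ap1s2 (0.9852) and Tmod1 (0.9770), Mef2a by Qk (0.9742), Zfp46 (0.9732) and Ppp1r12b (0.9722), and Mef2d by Rnmt (0.9717), Mef2c (0.9637) and St6galnac4 (0.9622).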

How the data were processed

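The deposited values are raw read counts per gene, 1 table per tissue with 6 libraries each. Per the file headers, the authors counted read pairs over exons with featureCounts 1.5.0-p3, without strand, on Ensembl 86 (GRCm38); the submitters' processing notes also name FastQC, STAR and DESeq2, with versions not given in the sources used here. Genes were tested with edgeR 4.0.16 (TMM, filterByExpr, quasi-likelihood F test, R 4.3.3), per tissue for genotype, over 15 WT libraries for 10 tissue pairs, and over 30 libraries for interaction and shared effect, with p-values adjusted over all genes tested. DESeq2 1.42.0, other scalings, filters of 1 count in all or 10 counts in every library, a replicate block and leaving out each library were alternatives. Scripts were tested on simulated counts. Ratios within muscle had an exact permutation test. Ratios of counts carry exact 95% intervals, which cover counting error only. Library totals are in the report.

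The members and all lists were chosen with earlier results of these data known. Named from each list were genes called for genotype, up to 3 with the largest log2 fold change in muscle among those at 1 CPM or more whose groups did not overlap, and the 3 highest per length in WT muscle. Other genes (Id2, Id4, Chrna1, Chrnb1, Chrne, Chrng, Slc2a4 and those called only under an alternative) were named after their values were seen. One gene that this rule names is not reported here. As most alike, the 3 named genes with the highest r were taken (log2 CPM, prior count 2, mean of 1 CPM or more in a tissue). Replicates differed by more than sampling noise in all 30 pairs (chi-square per degree of freedom 15.4 or more). The labels do not say which libraries share a mouse, so the main fits over 15 or 30 libraries held no term for the mouse. Same-numbered WT and Ctcf+/- libraries deviated together in brain (r = 0.207, 0.383 and 0.537) and kidney (0.209, 0.190 and 0.212), above the 0.1 set for every pair, but not in liver, muscle or spleen.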

Additional observations from a re-analysis of the deposited data

How the results depend on the processing

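The count of 0 members called between genotypes held in all 5 tissues under every alternative run, as did the 0 for the interaction and for the shared effect. With the replicate block the smallest edgeR adjusted p was that of Pax7 in muscle (0.429, log2 fold change 0.47 ± 0.18). Not every muscle pair passed the 0.1 set for r, and 2 of 3 correlated best with their own number, as in brain. All 8 members were higher in muscle than in each other tissue under every alternative except total counts, with 5 against brain and 7 against spleen; values that turned with it were muscle over brain for Mef2a (-0.56), Mef2c (-0.02) and Mef2d (-0.50), muscle over spleen (-0.37) and liver over kidney (-0.65) for Mef2d, and Ctcf+/- over WT for Mef2a in liver (0.06). Mef2a in kidney, near 0, turned with DESeq2 (-1.0e-03), DESeq2 size factors (-1.0e-03), a filter of 1 count (-1.3e-04) and the replicate block (-0.01). Calls among the 69 pathway genes went from 0 to 1 in liver with DESeq2 (Bhlhe40), to 2 in muscle with the block (Csrp3 and Xirp1, both lower in Ctcf+/-) and to 3 in spleen in a fit of all 30 libraries (Msc, Six5 and Tead1, all higher). Calls among all genes were 3, 4, 3, 4 and 45 in brain, kidney, liver, muscle and spleen, with DESeq2 28, 164, 73, 159 and 187, with the block 22, 21, 7, 118 and 0, with the filter of 1 count 6, 45, 16, 66 and 74, and in the fit of all 30 libraries 1, 13, 37, 229 and 250; spleen had 0 with 10 counts in every library, and kidney 24 without both libraries numbered 3 (chosen after the data were seen). Without 1 library the counts ran from 0 to 1 in brain, 3 to 56 in kidney (56 without Ctcf+/- replicate 3), 1 to 17 in liver (17 without Ctcf+/- replicate 3), 1 to 2 in muscle and 0 to 29 in spleen, where only the fit without Ctcf+/- replicate 2 was above 1. The cause was not tested. Leaving out 1 library turned small uncalled log2 fold changes: in brain Pax7 (-0.53 to 0.30), Mef2a (-0.05 to 0.10) and Mef2c (-0.13 to 0.20), in kidney Mef2a (-0.14 to 0.09) and Mef2d (-0.02 to 0.19), in liver Mef2a (-0.22 to 0.14) and Mef2d (-0.09 to 0.24), in muscle Myog (-0.22 to 0.48), Myf5 (-0.16 to 1.1e-03), Myf6 (-0.01 to 0.12), Mef2a (-0.02 to 0.15) and Mef2c (-0.19 to 0.04), and in spleen Mef2a (-0.08 to 0.26), Mef2c (-0.46 to 0.01) and Mef2d (-0.24 to 0.12). The Ctcf+/- minus WT difference in muscle ranged from -0.0136 to 0.413 for the log2 ratio of Myod1 to Myog, from -4.36 to 0.413 percentage points for the Myf6 share, from -1.32 to 0.290 for the Mef2c share and from -1.28 to 0.295 for the Mef2d share. A count of 0, as for Myod1 in liver and Myf5 in WT libraries outside muscle, sets only a bound. All 3 Myod1 counts of WT kidney and all 4 Pax7 counts of WT liver lay in a library with transcripts of another tissue.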
